A study of Mus musculus with 6 samples.

Results

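The 3 arrays described here profile cultured mouse fibrosarcoma cells that carry the Q72L form of Rras2 and had received pLKO, an empty lentiviral vector. They are the arrays titled as FS2 with pLKO, replicates 1 to 3, and make up 3 of the 6 arrays of the series. The cells are of C57BL/6 background and were grown in DMEM with fetal bovine serum, L-glutamine, penicillin and streptomycin. The mutant allele and the vector are common to the 3 arrays, and no wild-type fibroblast, untransduced cell or other tumour stands beside them here. The other 3 arrays, of the same cells with an shRNA vector against Rras2, are not compared. Whether the line is 1 clone, and whether the 3 arrays came from separate cultures, is not given in the sources used here, so the spread between arrays may be technical.

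Fibrosarcoma is a malignant tumour of fibroblast-like mesenchymal cells. R-RAS2, also called TC21, is a small GTPase of the RAS family that is active when bound to GTP and passes signals to RAF kinases and to phosphoinositide 3-kinase. Fibroblasts build and remodel the extracellular matrix, and when they become contractile (myofibroblasts) they make smooth muscle actin. The question addressed here is which lineage markers, receptors, secreted factors and transcription factors gave a signal above background in these cells.

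Each value below is a log2 signal of 1 probe set on 1 array. Signals were set against 5222 probe sets that are named as negative controls on the array. What sequences these sets match is not given in the sources used here. Over their 3-array means the median was 4.98, and 95% of them lay under 7.86. A gene was called above background where its signal minus the negative controls' 95th percentile on that array (7.85, 7.92 and 7.90 on arrays 1, 2 and 3) was over 0 at an adjusted p under 0.05. It was called below background where the difference was under 0 at the same threshold, and undecided otherwise. The test was limma's on the 3 arrays, two-sided, with Benjamini-Hochberg adjustment over 19505 genes. Of these, 7759 (39.8%) were above background, 10925 (56%) below and 821 (4.21%) undecided. A call below background says that the signal lay under the negative controls' 95th percentile, not that the transcript is absent. Such a signal can still exceed most negative controls, as for Thy1, whose mean was above 89.3% of them.

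A signal also depends on the probes. The 23 background probe sets sorted by GC content ran from a mean of 3.38 to 8.57, and 5 of them lay above the threshold on all 3 arrays. The same fit called 203 negative controls (3.89%) above background, and single negative controls reached 13.71. Signals of different genes are therefore not read as an order of transcript abundance. A stricter mark is also given: 3033 genes (15.5%) had a mean above 9.86, the 99th percentile of the negative-control means. The number of arrays limits the precision. The median SE of a difference from the threshold was 0.067, and pairs of arrays correlated between 0.9953 and 0.9966 over all genes.

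**Figure D1:**
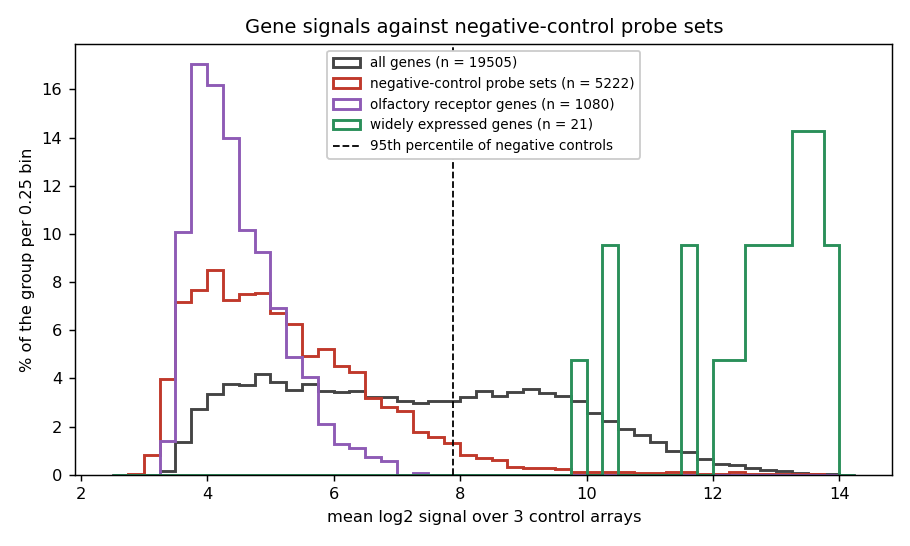
Share of each group per bin of 0.25 (vertical axis, percent) by mean log2 signal over the 3 control arrays (horizontal axis), for all 19505 genes, 5222 negative-control probe sets, 1080 olfactory receptor genes and 21 widely expressed genes. The dashed line is the mean of the negative controls' 95th percentiles on the arrays. The olfactory receptor genes lie to its left and the widely expressed genes to its right.

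Genes of known expression were set beside the calls. Of 1080 olfactory receptor genes, which serve smell in nasal neurons, 0 were above background, and their highest mean was 7.33. All 21 measured genes of a widely expressed list were above it, as were all 23 of a proliferation list. The olfactory median, 4.34, lay under the negative controls' median of 4.98, and the other lists were chosen with earlier results known. These genes therefore do not show how often genes whose probes give a higher background were called wrongly. The proliferation antigen gene Mki67 had signals of 12.47, 12.34 and 12.43. Beside cytoskeletal, ribosomal and metabolic genes such as Actb, Eef1a1, Gapdh, Tubb5, Pkm and Rplp1, the 15 highest signals held Vim, Acta2 and Sparc, which are mesenchymal or contractile genes. They also held B2m, the light chain of MHC class I, the iron storage gene Fth1 and the membrane protein genes Emp3 and Tmem47.

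By the listed markers the cells had a mesenchymal and contractile profile, and epithelial and leukocyte markers were nearly all below background. The lists were chosen with earlier results of these data known, so the counts are a description. Of 28 measured fibroblast and mesenchyme markers 18 were above background, and of 14 smooth muscle and myofibroblast markers 9 were, against 39.8% of all genes. Past the 99th percentile of the negative controls were 15 and 7 of them, against 15.5% of all genes. Over all 297 lineage markers, 47 (15.8%) were above background and 244 below. Of 23 lineage lists 12 had 0 markers above background.

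Vim, which encodes the intermediate filament of mesenchymal cells, had signals of 13.86, 13.85 and 13.81. Sparc, a collagen-binding matrix protein, had 13.68, 13.73 and 13.74. Fn1, which encodes fibronectin, had 13.23, 13.17 and 13.23. The 3 arrays thus lay within 0.1 of each other for each of these genes. Also above background were the hyaluronan receptor Cd44, the collagen receptor Ddr2 and the mesenchymal homeobox factor Prrx1 (11.85, 11.82 and 11.65).

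Some textbook fibroblast markers were not above background. Thy1, a surface glycoprotein used to sort fibroblasts, had 7.05, 6.96 and 7.25 and was below it. The small proteoglycan gene Dcn had 6.81, 6.59 and 6.43, also below. Twist1, a bHLH factor of mesenchyme, had 7.97, 7.72 and 7.68 and was undecided. The 2 chains of type I collagen differed in their calls. Col1a1 had 8.27, 8.28 and 8.17, a mean 0.35 ± 0.06 (SE, n = 3) above the threshold (limma, adjusted p = 0.0007495). Col1a2 had 6.74, 6.30 and 6.43 and was below background, by a difference of -1.40 ± 0.10 (SE, n = 3; limma, adjusted p = 1.125e-06).

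The contractile genes were bright on each array. Acta2, the smooth muscle actin of myofibroblasts, had 13.86, 13.83 and 13.74, a mean 5.92 ± 0.06 (SE, n = 3) above the threshold (limma, adjusted p = 3.217e-10). The actin-binding genes Tagln, with 12.73, 12.68 and 12.54, and Tpm1 and Tpm2 were above background too, as was Actg2. Other genes of the list were not above background. Myh11, the smooth muscle myosin, had 7.87, 7.92 and 7.89 and was undecided. The desmin gene Des had 5.36, 5.52 and 5.45, and the smooth muscle coactivator gene Myocd had 4.47, 5.09 and 4.89, both below background.

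Of 29 skeletal muscle markers 4 (13.8%) were above background, against 39.8% of all genes, and 0 passed the 99th percentile. Pax3 and Pax7 encode paired box factors of muscle progenitors and neural crest, and had 9.77, 9.71 and 9.75 and 9.41, 9.27 and 9.42. Tnnt1 and Actc1 encode troponin and actin of the sarcomere and lay closer to the threshold, at 8.25, 8.25 and 8.37 and at 8.12, 8.33 and 8.23. The myogenic factors Myod1 (6.64, 6.31 and 6.00), Myf5 (5.41, 5.58 and 5.12) and Myog (7.05, 7.06 and 6.70) were below background. Of 12 cardiac markers 0 were above it.

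Of other mesenchymal lineages, single genes or small groups were above background. Of 9 tendon markers 4 (44.4%) were above it, near the 39.8% of all genes. Among cartilage markers the share was 8.33%, and among adipocyte markers 9.09%. The tendon factor gene Scx had 8.68, 8.87 and 8.81, and the homeobox gene Mkx had 8.73, 8.59 and 8.67, but the late tendon gene Tnmd had 5.77, 6.15 and 5.80. The matrix gene Tnc and the growth response gene Egr1 made up the 4. Of 12 cartilage markers the regulator gene Sox9 alone was above background, with 10.20, 9.92 and 10.03, while Acan had 7.09, 7.28 and 7.13. Of 12 listed bone markers 9 were measured, and 0 of these were above background. Runx2 and Spp1 had no probe set used here. Of 11 adipocyte markers Lpl, a lipoprotein lipase, was above it and Pparg, the adipocyte regulator, had 6.69, 6.61 and 6.76.

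Markers of cells that could accompany a tumour were mostly below background. Of 22 epithelial markers 0 were above it and 22 below, with Epcam, an epithelial adhesion gene, at 5.31, 5.18 and 5.53. Of 61 genes in the 5 leukocyte lists 1 (1.64%) was above background and 59 below. The common leukocyte gene Ptprc had 6.30, 6.37 and 6.36. The exception was Ebf1, with 10.29, 10.15 and 10.13, a B cell factor that mesenchymal cells also express; the B cell receptor genes Cd79a and Cd79b had means of 5.40 and 4.89. Mesothelial, melanocyte, Schwann cell and glia, hepatocyte and pluripotency lists each had 0 above background, of 7, 8, 10, 11 and 14 measured.

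Of 14 endothelial markers 2 were above background, Esam and Flt1. Flt1, a VEGF receptor, had 10.11, 9.93 and 9.92, whereas the defining endothelial genes Pecam1 (5.82, 5.93 and 5.68) and Cdh5 (4.19, 4.40 and 4.37) were below background. Of 16 neuronal markers 5 were above it, between means of 8.38 and 8.96. They were the cytoskeletal genes Map2, Nefm, Tubb3 and Stmn2 and the ubiquitin hydrolase gene Uchl1, and the synaptic gene Snap25 had 5.19, 5.26 and 5.46. Of 8 pericyte markers Mcam and Pdgfrb were above background and Rgs5 and Cspg4 below. In RNA from a bulk culture, fewer cells of a type and less RNA per cell cannot be told apart.

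**Figure D2:**
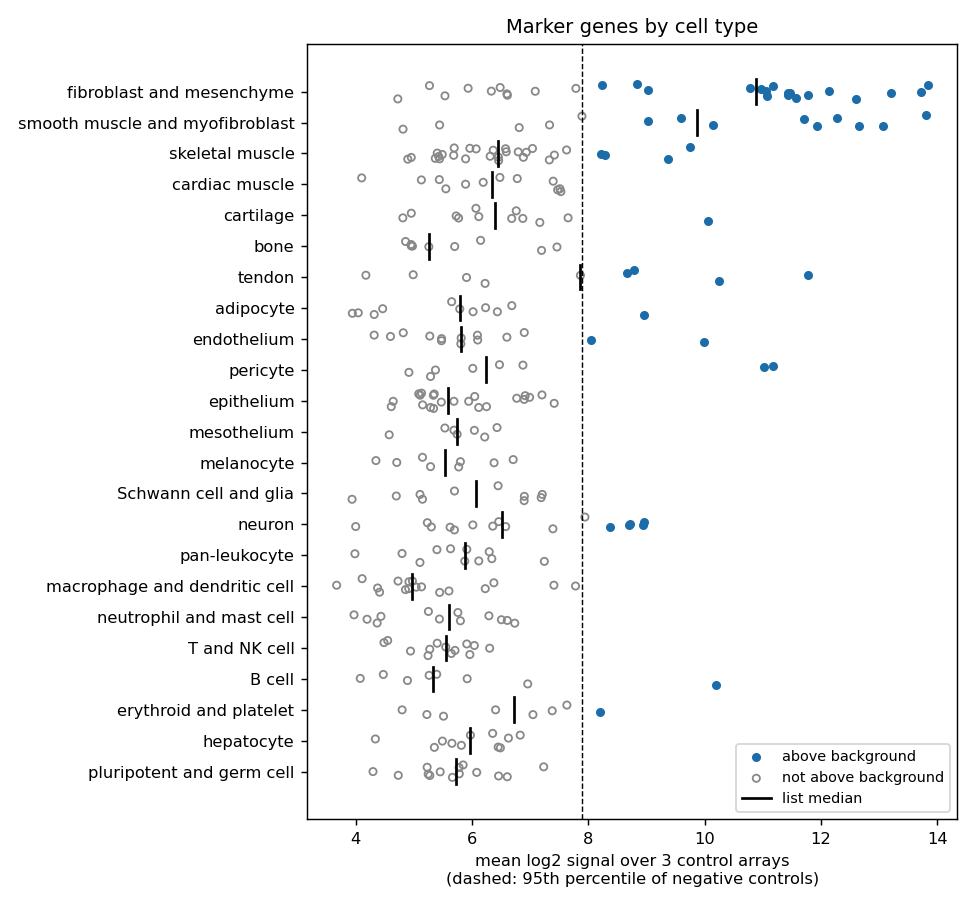
Mean log2 signal over the 3 control arrays (horizontal axis) of each measured marker in 23 lists (rows; a gene in several lists is drawn in each). Filled points are genes above background, open points are not, the bar is the list median and the dashed line the negative controls' 95th percentile. The fibroblast (median 10.88) and smooth muscle (median 9.87) rows have their medians to the right of the line.

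Promoter sequences are shown to set the signal calls beside a feature the calls did not use, the CpG content around the gene start. In mammals many widely expressed genes start in CpG-rich stretches, while many tissue-restricted genes do not. RefSeq windows of GRCm38.p6, from 250 bases before to 50 after the start, were found by symbol for 15691 of the 19505 genes (80.4%), the first listed window being used. Genes above background (82.0% with a window) had a median observed-to-expected CpG ratio of 0.804. The median was 0.605 over all genes and 0.105 over the olfactory receptor genes (85.3% with a window). A ratio over 0.6 was found in 79.7% of the genes above background and in 50.5% of all genes. For the genes below background 79.2% had a window, short of the 80% required, so a summary for them is void and not given. The letters TATAAA, searched on the gene's own strand with a first base 40 to 20 bases before the start, were in 1.07% of the windows of genes above background, in 2.84% of those of all genes and in 2.22% of all 27025 windows. The base composition of the probes is not in the files and its part in these differences was not tested.

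The 6 stretches below are the 150 bases before the RefSeq start of genes on both sides of the call, read 5′ to 3′ on the gene's strand, with each CpG in capitals. Each lies upstream of the first exon of the transcript model used.
Sparc: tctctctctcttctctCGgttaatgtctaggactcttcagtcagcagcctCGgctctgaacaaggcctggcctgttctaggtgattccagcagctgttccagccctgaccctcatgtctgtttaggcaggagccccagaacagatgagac
Acta2: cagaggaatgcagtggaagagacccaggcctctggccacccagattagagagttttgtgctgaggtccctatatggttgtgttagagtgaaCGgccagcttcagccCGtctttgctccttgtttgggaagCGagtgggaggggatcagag
Axl: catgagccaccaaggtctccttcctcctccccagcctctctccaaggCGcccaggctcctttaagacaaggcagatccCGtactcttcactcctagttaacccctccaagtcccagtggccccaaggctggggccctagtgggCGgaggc
Grem1: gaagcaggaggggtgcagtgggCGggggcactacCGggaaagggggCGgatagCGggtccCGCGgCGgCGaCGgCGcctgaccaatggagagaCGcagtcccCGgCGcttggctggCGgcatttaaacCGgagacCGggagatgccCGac
Cdkn2a: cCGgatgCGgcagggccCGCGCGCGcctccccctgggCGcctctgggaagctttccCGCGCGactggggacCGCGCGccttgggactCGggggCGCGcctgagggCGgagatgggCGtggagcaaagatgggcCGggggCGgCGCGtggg
Ptprc: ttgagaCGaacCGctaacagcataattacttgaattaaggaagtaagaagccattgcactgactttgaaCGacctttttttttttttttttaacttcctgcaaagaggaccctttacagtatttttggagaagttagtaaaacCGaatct
The first 4 belong to genes above background and the last 2 to genes below it. The Sparc stretch (chr11:55420081-55420230, minus strand) holds 2 CpGs. That of Acta2 (chr19:34255374-34255523, minus strand) and that of Axl (chr7:25788734-25788883, minus strand), a receptor tyrosine kinase gene, hold 3 each. The stretch of Grem1, a secreted BMP antagonist gene (chr2:113758649-113758798, minus strand), holds 17. Cdkn2a, a tumour suppressor gene below background, has 22 in its stretch (chr4:89294620-89294769, minus strand), and the leukocyte gene Ptprc has 4 (chr1:138175306-138175455, minus strand). In their whole windows the ratio was 0.174 for Sparc, 0.27 for Acta2, 0.22 for Axl, 0.792 for Grem1, 1.039 for Cdkn2a and 0.481 for Ptprc. So 3 of the brightest mesenchymal and receptor genes had CpG-poor starts and a gene with a CpG-rich start gave no signal above background. For Cdkn2a and Ptprc 2 windows each are listed, and the first is shown. These 6 were chosen with their values known.

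The mutated gene and its pathway were read next. Rras2 had signals of 10.67, 10.75 and 10.82, a mean 2.86 ± 0.06 (SE, n = 3) above the threshold (limma, adjusted p = 7.18e-10). The probe set does not tell the Q72L allele from a wild-type one. The closest relatives Rras (11.84, 11.86 and 11.86) and Mras (10.28, 10.22 and 10.33) were above background too, as was Nras (9.77, 9.71 and 9.57). In all, 13 of 20 measured RAS family GTPase genes were above it. So were 12 of 12 genes of the RAF-MEK-ERK cascade, among them Shoc2, Map2k2 and Sos1, and 14 of 16 genes of the phosphoinositide 3-kinase and mTOR pathway. In that pathway the catalytic subunit genes Pik3cd (7.39, 7.30 and 7.46) and Pik3cg (5.19, 5.08 and 5.40), known mainly from leukocytes, were below background. The pathway counts stand beside 39.8% of all genes and 21 of 21 widely expressed genes, and were not tested against either.

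Of 18 measured tumour suppressor and cell cycle inhibitor genes 14 were above background, against 39.8% of all genes. The cyclin-dependent kinase inhibitor gene Cdkn1a had 12.79, 12.62 and 12.77, and Mdm2, which encodes the ubiquitin ligase of p53, had 12.26, 12.13 and 12.20. Both are known targets of p53. Cdkn2a, which encodes p16 and p19ARF, had 4.63, 4.39 and 4.21, a difference of -3.48 ± 0.09 (SE, n = 3) from the threshold (limma, adjusted p = 2.069e-09). A lower mean was found in 32.6% of the negative controls. Its neighbour Cdkn2b had 5.88, 5.75 and 5.64 and was below background as well. The telomerase gene Tert had 5.93, 6.55 and 6.46, below background. Myc had 11.29, 11.30 and 11.46.

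Receptor genes above background included growth factor receptors of mesenchyme, matrix receptors and some cytokine receptors, and no chemokine receptor of those measured was above it. Of 330 measured receptor genes 118 (35.8%) were above background and 193 below, against 39.8% and 56% of all genes, so the class as a whole lay near the background share. Within it, 0 of 22 chemokine receptors and 12 of 18 matrix receptors other than integrins were above background.

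Of 55 receptor tyrosine kinases and listed relatives 23 (41.8%) were above background and 8 passed the 99th percentile. Axl, the receptor for GAS6, had 12.66, 12.56 and 12.63, a mean 4.73 ± 0.06 (SE, n = 3) above the threshold (limma, adjusted p = 3.217e-10). The other 2 members of its family were undecided, Tyro3 with 7.85, 7.73 and 7.74 and Mertk with 7.74, 7.74 and 7.92. Pdgfrb, a PDGF receptor of mesenchymal cells, had 11.10, 11.26 and 11.18. Its relatives Kit (5.85, 5.93 and 5.63), Csf1r (5.02, 5.06 and 4.85) and Flt3 (4.62, 4.67 and 4.90), which are known from blood and immune cells, were below background. Each of these receptors thus lay on 1 side of the threshold on the 3 arrays, except Mertk.

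Among growth factor receptors of other families, Epha2, an ephrin receptor, had 11.17, 11.06 and 11.17. Met, the receptor for hepatocyte growth factor, had 9.90, 9.96 and 10.04. Fgfr1, the FGF receptor of mesenchyme, had 9.52, 9.48 and 9.52. The insulin and IGF receptor genes Insr, Igf1r and Igf2r were also above background, and so were Erbb2 and Egfr (9.21, 8.81 and 9.04). Their partners Erbb3 (5.62, 5.72 and 5.76) and Erbb4 (5.22, 5.33 and 5.56) were below it. The WNT co-receptor kinase gene Ryk and the collagen receptor gene Ddr2 had 11.95, 12.02 and 11.92 and 12.20, 12.10 and 12.13.

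**Figure D3:**
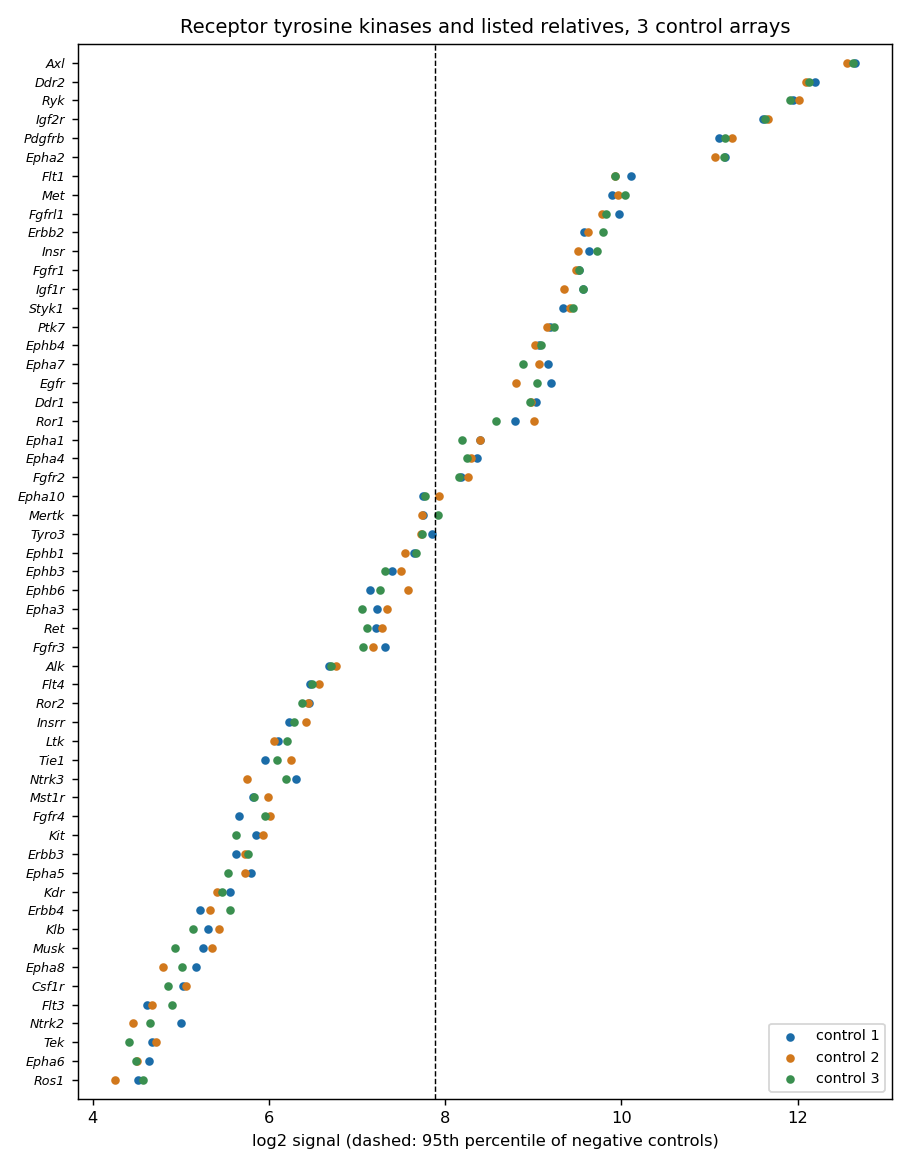
Log2 signal (horizontal axis) of 55 receptor tyrosine kinases and listed relatives (rows, sorted by mean signal, which is not an order of abundance) on each of the 3 control arrays (colours). The dashed line is the negative controls' 95th percentile. The 3 points of a gene mostly overlap, and 23 genes were above background.

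Receptors of the TGF-beta and BMP families, with the co-receptor genes Tgfbr3 and Eng included, were above background in 5 of 14 cases. The BMP receptors Bmpr2 (10.86, 10.76 and 10.87) and Bmpr1a (9.57, 9.59 and 9.40) and the TGF-beta receptors Tgfbr1 and Tgfbr2 were among them. Of 18 WNT receptors 11 were above background, with the frizzled receptor gene Fzd2 at 10.80, 11.06 and 11.03. Of 9 Notch and Hedgehog receptors 6 were, including the Hedgehog co-receptor genes Cdon, Boc and Gas1, the transducer gene Smo (9.96, 9.87 and 9.94) and Notch2. Notch1 had 7.97, 7.64 and 8.02 and was undecided.

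Of 24 integrin subunits 8 were above background. The common beta subunit gene Itgb1 had 12.46, 12.45 and 12.44. The alpha chains Itgav (11.26, 11.25 and 11.30), Itga3 and Itga6 and the beta chain Itgb5 were above background, which are subunits of vitronectin and laminin receptors. Itga2 (5.31, 5.24 and 5.51) and Itga4 (7.58, 7.53 and 7.25) were below it. Of the other matrix receptors the syndecan genes Sdc2 and Sdc3 and the dystroglycan gene Dag1 were above background.

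Of 24 interleukin-6 family and haematopoietin receptors 7 were above background, among them Il6st, the shared signalling chain gp130, with 11.54, 11.51 and 11.41. The growth hormone receptor gene Ghr was above background as well. Il6ra, the interleukin-6 binding chain, had 7.74, 7.52 and 8.19 and was undecided. The interferon receptor genes Ifnar1, Ifnar2, Ifngr1 and Ifngr2 were above background, with Ifngr2 at 10.04, 10.02 and 10.05. Tlr2 and Tlr4, which sense microbial products, had 9.39, 9.60 and 9.68 and 9.66, 9.46 and 9.56. Of 26 TNF receptor genes 11 were above background, with the TWEAK receptor gene Tnfrsf12a at 11.51, 11.48 and 11.56.

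Of 22 chemokine receptors 0 were above background and 22 below, the highest with a mean of 7.51. Of 27 lysophospholipid, protease and vasoactive receptors 5 were above it, among them the thrombin receptor gene F2r with 12.03, 11.99 and 11.92. Of 26 aminergic receptors 2 were, Adra1b and Htr1b. Htr1b, a serotonin receptor gene, had 11.01, 10.79 and 11.01, while the list median was 5.88. Of 20 axon guidance receptors 9 were above background, with Neo1, a receptor for netrins and repulsive guidance molecules, at 11.62, 11.58 and 11.73.

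Secreted products above background included matrix proteins, protease inhibitors, growth factors and cytokines. Of 478 measured genes of this class 146 (30.5%) were above background and 312 below, against 39.8% and 56% of all genes. Above background were 21 of 42 matrix glycoprotein genes and 9 of 12 genes of matrix cross-linking enzymes, beside 2 of 33 interleukin genes, 2 of 21 FGF genes and 0 of 18 TNF superfamily and interferon genes. These counts were not tested against each other.

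Of 42 collagen genes 15 (35.7%) were above background. Among 11 fibrillar collagen genes 5 were, with Col3a1 at 10.98, 11.27 and 10.96 and Col5a2 at 10.04, 10.33 and 10.13, beside Col5a1, Col11a2 and Col1a1. Of 31 other collagen genes 10 were above background, including the basement membrane gene Col18a1 (10.99, 11.01 and 11.25), Col4a2 and the type VI genes Col6a1 and Col6a3. The laminin chain genes Lamb1, Lamb2 and Lamc1 and the nidogen genes Nid1 and Nid2 were above background, and the alpha chain genes Lama1 (6.05, 6.02 and 6.01), Lama2 (5.59, 5.55 and 4.88) and Lama3 (5.88, 5.69 and 5.81) below, as were all 5 alpha chain genes measured. Laminins are trimers of an alpha, a beta and a gamma chain.

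Among matrix glycoproteins Igfbp7 had 13.13, 13.15 and 13.14, and Ccn1, a matricellular target of YAP, had 13.04, 13.02 and 13.08. The thrombospondin gene Thbs1, an activator of latent TGF-beta, had 12.58, 12.53 and 12.45, but its relative Thbs2 had 4.92, 5.32 and 5.14. The proteoglycan gene Bgn had 13.21, 13.21 and 13.15, in contrast to Dcn, which was below background. Ogn, another small proteoglycan gene, was above background with a wide spread, at 10.96, 11.52 and 10.56. The collagen-processing genes Pcolce (11.92, 12.14 and 12.04), Loxl3, Lox (11.57, 11.71 and 11.44) and Bmp1 were above background.

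Matrix metalloproteinase genes were above background in 4 of 20 cases. The membrane-bound Mmp14 had 11.56, 11.60 and 11.59 and Mmp2, the gelatinase it activates, had 11.39, 11.48 and 11.40. Mmp16 and Mmp11 completed the 4. Mmp3 (4.64, 4.93 and 4.58), Mmp9 (5.36, 5.80 and 5.47) and Mmp13 were below background. The inhibitor genes Timp1 (11.97, 11.96 and 11.97), Timp2 (12.66, 12.61 and 12.55) and Timp3 were above it and Timp4 (4.68, 4.89 and 4.91) below. The plasminogen activator genes Plau (10.39, 10.26 and 10.34) and Plat were above background.

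Growth factor genes were read family by family. Of 16 BMP and GDF ligand genes Bmp4 alone was above background, with 11.29, 11.45 and 11.20, while Bmp2 had 4.51, 4.32 and 4.27. The BMP antagonist gene Grem1 had 13.12, 13.08 and 13.05, a mean 5.19 ± 0.06 (SE, n = 3) above the threshold (limma, adjusted p = 3.217e-10). Fst and Twsg1, which also bind ligands of this family, were above background and Nog (7.08, 7.26 and 7.10) below. The activin chain gene Inhba (11.64, 11.46 and 11.43) and Tgfb1, Tgfb2 and Tgfb3 (10.94, 11.08 and 10.84) were above background.

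Of 12 PDGF and VEGF ligand genes 9 were above background, with Pdgfa at 10.34, 10.35 and 10.47 and Pdgfc at 10.32, 10.59 and 10.48, and with Vegfa at 8.89, 8.83 and 8.89. Of 10 EGF family genes 3 were, namely Ereg, Hbegf and Nrg1. Of 21 FGF genes Fgf2 (8.46, 8.29 and 8.46) and Fgf22 were above background. Of 19 WNT genes Wnt5a (8.80, 8.90 and 8.76) and Wnt9b were. Igf1 and Igf2 were both above background, Igf2 at 8.72, 8.86 and 8.84 and Igf1 at 8.40, 9.29 and 8.33. Semaphorin genes Sema3a and Sema3e (11.42, 11.31 and 11.31), which encode guidance cues, were above background, as was the neurotrophin gene Bdnf.

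Among cytokines, Csf1, the growth factor of macrophages, had 13.38, 13.27 and 13.29, a mean 5.42 ± 0.06 (SE, n = 3) above the threshold (limma, adjusted p = 3.217e-10). The stem cell factor gene Kitl had 10.24, 10.16 and 10.25. Csf2 (4.91, 4.99 and 5.00) and Csf3 (6.68, 6.44 and 6.41), which act on granulocytes, were below background. Of 37 chemokine genes 8 were above it. Cxcl12 had 11.65, 11.76 and 11.75 and Cx3cl1, a membrane-bound chemokine gene, had 10.60, 10.50 and 10.54. The monocyte attractant gene Ccl2 had 8.63, 8.60 and 8.45, and the neutrophil attractant gene Cxcl1 had 6.69, 6.96 and 6.55, below background. The inflammatory genes Il1b (4.67, 4.68 and 4.90) and Tnf (4.93, 4.64 and 4.93) were below it.

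Genes for display to T cells were read from a list of 19, of which 10 were above background, against 39.8% of all genes. The class I genes B2m (13.64, 13.62 and 13.54) and H2-K1 (10.45, 10.59 and 10.12) and the loading factor gene Tapbp were above it. The class II genes H2-Aa (7.28, 7.20 and 7.39), H2-Ab1 (7.14, 6.98 and 7.28) and H2-Eb1 (6.35, 6.59 and 6.45) were below. Cd274, which encodes the checkpoint ligand PD-L1, had 6.96, 7.03 and 6.45, below background. Cd47, a signal against engulfment, had 11.44, 11.34 and 11.29.

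Transcription factor genes were represented broadly, with 210 of 460 (45.7%) above background and 231 below, which is close to the 39.8% of all genes. Above background were 17 of 22 SMAD, STAT and IRF genes, 18 of 25 MYC, MAX and E2F genes and 16 of 24 AP-1, ATF and CREB genes. So were 10 of 16 TALE cofactor genes, 15 of 42 nuclear receptor genes, 7 of 33 Hox genes (21.2%), 5 of 20 SOX genes and 4 of 16 T-box genes. These counts were given for families chosen with their values known and were not tested against each other.

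Hox genes mark position along the body and limb axes, with low paralog numbers used toward the head and high ones toward the tail and the limb tip. The 7 Hox genes above background were Hoxc4, Hoxc6, Hoxc8, Hoxc9, Hoxa10, Hoxb7 and Hoxd8, with paralog numbers from 4 to 10. Hoxc8 had 11.14, 10.99 and 11.05, a mean 3.17 ± 0.07 (SE, n = 3) above the threshold (limma, adjusted p = 6.657e-10). Hoxc6 had 10.97, 10.81 and 10.90, and these were the 2 Hox genes past the 99th percentile. Within the HoxC cluster Hoxc5 had 8.02, 8.17 and 7.91 and was undecided, and Hoxc10, which follows Hoxc9 in paralog number, had 6.21, 5.86 and 6.34. Of the 12 measured genes with paralog numbers from 10 to 13, Hoxa10 (8.63, 8.53 and 8.49) was above background and the other 11 below. Of 39 listed Hox genes 6 were not analysed here.

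**Figure D4:**
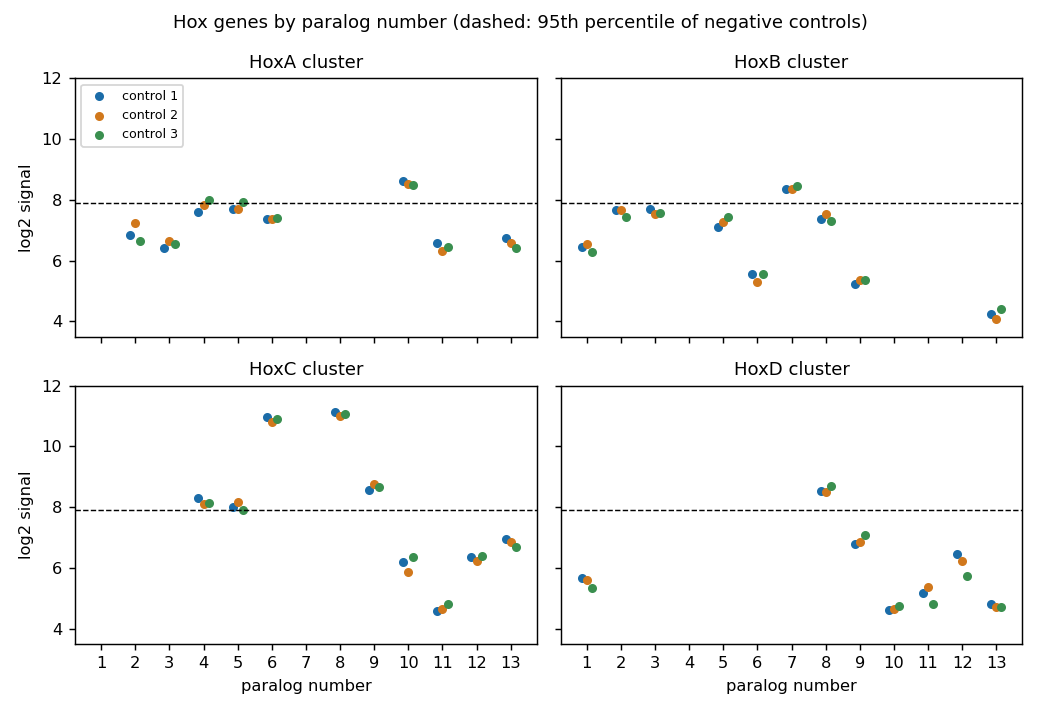
Log2 signal (vertical axis) of 33 Hox genes by paralog number (horizontal axis) in the 4 clusters (panels), with 1 point for each of the 3 control arrays (colours). The dashed line is the negative controls' 95th percentile. Hoxc6 and Hoxc8 stand near 11 on the 3 arrays, and genes with numbers from 11 to 13 lie below the line.

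Factors of limb and trunk mesenchyme were partly above background, with 12 of 33 mesenchymal homeobox genes (36.4%) and 5 of 18 genes of the Pax, Eya and Six4-related families (27.8%) above it, against 39.8% of all genes. Beside Prrx1, the related gene Prrx2 had 9.78, 9.71 and 9.86, and Shox2, Dlx2 and Bnc2 were also above it. The T-box genes Tbx15 (9.19, 8.68 and 9.23), Tbx18 (8.93, 8.80 and 9.10) and Tbx3 were above background. The limb-type genes Tbx5 (5.83, 6.07 and 5.77), Tbx4 (7.22, 7.29 and 7.02) and Pitx1 (5.83, 6.02 and 5.86), which mark forelimb and hindlimb, were below. Eya1, Six4, Pax3 and Pax7, which act in muscle and placode progenitors, were above background, with Eya1 at 10.83, 10.80 and 10.81. Meis1, Meis2 and Pknox2, cofactors of Hox proteins, were above background too.

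Of 5 measured factors of epithelial-mesenchymal transition, Snai2 (11.87, 11.74 and 11.72), Zeb1 (9.87, 9.74 and 9.88) and Snai1 (8.39, 8.60 and 8.36) were above background. Cdh2, the mesenchymal cadherin gene, had 11.48, 11.43 and 11.50, while Cdh1, the epithelial one, had 6.88, 7.03 and 7.07 and was below it. The YAP and TAZ genes Yap1 and Wwtr1 (10.04, 10.09 and 10.05) and their partner gene Tead1 were above background. So were the SRF coactivator gene Mrtfb and the mesenchymal nuclear receptor gene Nr2f2 (11.08, 10.92 and 11.18).

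Among AP-1 genes, Fosl1, a target of RAS and ERK signalling, had 11.08, 11.06 and 11.18. Fos (7.08, 7.03 and 7.37) and Fosb, which respond early to serum, were below background. Of the ETS genes 15 of 25 were above it, including Ets1, Etv6 and Elk3, while the endothelial and blood genes Erg (4.95, 4.76 and 4.75) and Fli1 (5.98, 6.08 and 6.44) were below. Runx1 had 10.94, 10.82 and 10.98. The neural genes Sox11 (10.06, 10.06 and 9.93) and Zic1 (9.74, 9.63 and 9.68) were above background, and the pluripotency gene Sox2 (5.43, 5.24 and 5.15) below. Of the Hedgehog effector genes Gli3 (9.99, 9.70 and 10.00) was above background, whereas the pathway target Gli1 (5.98, 6.41 and 6.25) was below.

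Several fetal growth genes were above background. Hmga2, a chromatin protein gene of embryonic and tumour cells, had 10.11, 9.98 and 10.02. The RNA-binding protein gene Igf2bp3 had 10.25, 10.21 and 10.36, and the imprinted gene Mest had 10.34, 11.04 and 10.48. The imprinted genes Peg3 and Plagl1 were above background, and Dlk1 (6.24, 5.93 and 5.96) and Grb10 (5.77, 6.08 and 5.86) below. In all 6 of 11 measured genes of this list were above it, against 39.8% of all genes.

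The 3 arrays lay close together for most genes. The median SD was 0.103 over all genes and 0.074 over those above background, of which 13 had an SD over 0.5. Among genes above background, 11 had 1 array differing by more than 1 from the mean of the other 2, a selection made with the values known. In 9 of them array 3 was lower. They were Bst2, Gbp3, Ifit1, Ifit3, Ifit3b, Irf7, Oasl2, Usp18 and Xaf1, which are genes known to be induced by interferon. Ifit3 had 9.67, 9.71 and 8.08, and Irf7, an interferon regulatory factor gene, had 9.36, 9.43 and 8.20. Ifit3b, Gbp3, Ifit1, Usp18 and Xaf1 were above the threshold on arrays 1 and 2 and below it on array 3. Ifit3 and Ifit3b are near-identical copies whose transcripts 1 probe set may not tell apart, and Bst2 falls outside the rule for named genes.

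In the other 2 genes array 2 was higher, with the matrix gene Postn at 8.60, 9.60 and 8.32 and Islr at 8.19, 9.27 and 8.15. Igf1 and Mest, described above, also had their highest signal on array 2. For the 30 genes above background with the largest SD, the array furthest from the gene's median was read. It was array 3 on the low side in 20 genes and array 2 on the high side in 6. What set these arrays apart was not tested, and no scan or extraction date is at hand here.

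**Figure D5:**
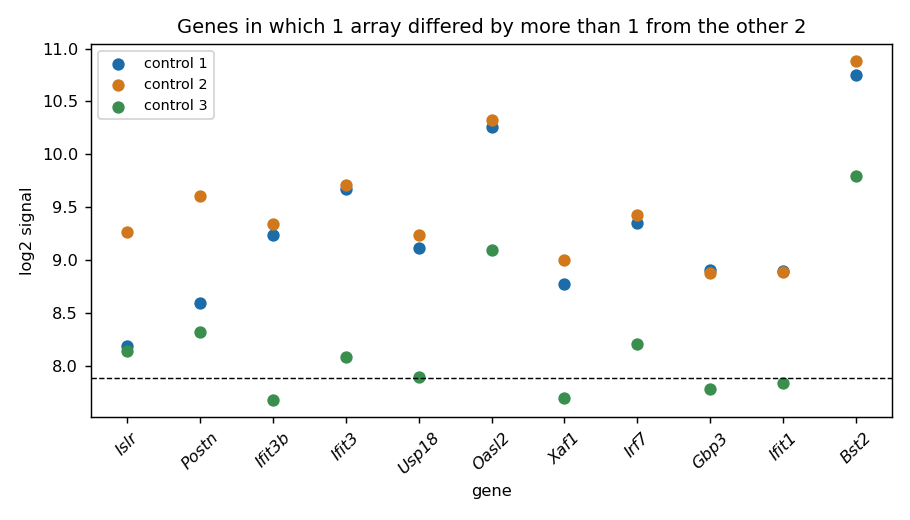
Log2 signal (vertical axis) of the 11 genes above background (horizontal axis) in which 1 of the 3 control arrays (colours) differed by more than 1 from the mean of the other 2. The dashed line is the negative controls' 95th percentile. Array 3 is the lowest in 9 interferon-induced genes, and array 2 the highest in Islr and Postn.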

How the data were processed

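The authors deposited log2 signals, 1 per probe set and array, from biotin-labelled cRNA on Affymetrix arrays. They were made with RMA and R 3.6.3, as listed per the submitters' processing notes. RMA subtracts an estimated background, brings arrays to a common distribution and combines the probes of a set. Which RMA package was used, and in which version, is not given in the sources used here. No scanner files or detection calls were used. Of 29129 probe sets, 6923 are controls and 5222 of these negative controls. The platform annotation gave 1 symbol to 19572 of 22206 transcript probe sets, several to 0 and none to 2634. Their 19572 Entrez identifiers all matched RefSeq genes (GRCm38.p6), with 0 symbols updated. For 55 genes with several probe sets the brightest by its 3-array control mean was kept, which left 19505 genes.

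Signals minus the negative controls' 95th percentile on the same array were fitted per gene with an intercept in limma 3.58.1 under R 4.3.3 (lmFit and eBayes, two-sided, Benjamini-Hochberg adjustment over all genes, 2 residual and 5.61 prior degrees of freedom), and the fit was tested on simulated data. The p-values measure the spread among 3 arrays, and differences between probes do not enter them. The members and lists were chosen with earlier results of these data known. Of 1755 listed genes 1608 were found by symbol and 1 by synonym, and 146 were not analysed here. Named are, per list, up to 5 genes above background with the highest signal and the first 3 not above it, the 15 highest signals, the 10 largest SDs among genes above background, and a set of genes whatever their values. The alternatives were other thresholds, other fits, another normalization, means over probe sets, predicted genes left out and each array left out. Promoter windows came from RefSeq on GRCm38.p6 and were described with no test.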

Additional observations from a re-analysis of the deposited data

Results flagged for a closer look

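Both results here come from probe sets outside the gene comparisons. Of 246 reporter probe sets on the array, 9 lay above the threshold on all 3 arrays, with means between 9.44 and 9.64, while the median over the reporter sets was 4.78. Their names are not paired with genes in the tables used here, and sets that carry different names hold identical values.

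Of 2634 transcript probe sets without a symbol, 743 (28.2%) were above background in a fit together with the genes, against 39.8% of the named genes. Their median signal was 6.27 and the highest 13.68.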

How the results depend on the processing

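The counts above background depend most on the threshold. With the negative controls' 99th percentile in place of the 95th, 2491 of all genes, 26 lineage markers, 41 receptor genes, 55 secreted factor genes and 60 transcription factor genes were above background. With the median plus 3 scaled median absolute deviations as the threshold, the counts were 4149, 30, 74, 75 and 106. With the brightest of the background sets sorted by GC content, an alternative chosen after seeing the data, they were 5944, 37, 99, 105 and 155. The other settings kept each count within 1.5 times its main value. Leaving out each array in turn gave 7594 to 7731 of all genes, 46 lineage markers, 119 receptor genes, 143 to 148 secreted factor genes and 208 to 209 transcription factor genes. Of 3295 recomputed positions of named genes among the negative controls, 3183 moved by no more than the spread between arrays, and the largest move was 6.45 percentage points. For 12 named genes, among them Notch1, Il6ra, Igfbp3 and Hoxa4, leaving out 1 array moved the position across 95%. No paired analysis was possible because the profile has 1 group, and the 2 groups of the series share no replicate numbers. Low signals are compressed, so a transcript of low abundance may lie among the negative controls.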

Other observations

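Signals of ligands were also set beside those of their known receptors, in 69 measured pairs written down after the values had been seen, so the counts are a description. In 25 pairs both genes were above background, in 29 the ligand alone, in 11 the receptor alone and in 4 neither. Undecided genes, such as Acvr2a beside Inhba, were counted here as not above background.

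Pairs with both genes above background included Pdgfb with Pdgfrb, Bmp4 with Bmpr1a and Bmpr2, Tgfb1 and Tgfb3 with Tgfbr2, and Ereg and Hbegf with Egfr. They also included Wnt5a with Fzd2 and Ryk, Jag1 with Notch2, and the ephrin gene Efnb2 with its receptor gene Ephb4, at means of 11.29 and 9.06. Ligands above background without their listed receptor included Csf1, Kitl, Cxcl12 and Nrg1. Csf1 had a mean of 13.31 and Csf1r 4.98, Kitl had 10.21 and Kit 5.80, and Cxcl12 had 11.72 beside 6.86 for Cxcr4 and 7.23 for Ackr3. Nrg1 had 9.91, and its receptors Erbb3 and Erbb4 had 5.70 and 5.37. Receptors above background whose listed ligand was below it included Met, at 9.96 beside 4.69 for Hgf, and Axl, at 12.62 beside 7.37 for Gas6. Osmr had 8.27 and Osm 4.36.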
